A study of Homo sapiens with 8 samples.

Results

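Choices among 3 exons were followed in JSL1 cells, a single-clone derivative of the human T cell line Jurkat, through local splicing variations (LSVs) with 3 junctions. An LSV is the set of splice junctions that leave 1 exon (a source LSV) or enter 1 exon (a target LSV), and each junction is measured by its share of that LSV. Members were the LSVs that the authors' deposited tables mark as exon skipping, with exactly 3 junctions, no alternative 5′ or 3′ splice site and no retained intron. They numbered 5851 of 91729 LSVs in PMA-treated cells and 5875 of 91480 in unstimulated cells. Over both tables together 6177 were listed, and 5549 were listed in both with the same junctions. The members lay in 3801 genes with PMA and in 3817 genes without it.

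The 4 groups were PMA-treated CELF2-depleted, PMA-treated control, unstimulated CELF2-depleted and unstimulated control cells, with 2 libraries each. CELF2 was depleted by stably integrated, doxycycline-inducible short hairpin RNAs delivered with lentivirus. PMA, a phorbol ester and protein kinase C activator, was given at 20 ng/mL for 48 hours. The sources used here do not say whether controls were given doxycycline or a control hairpin, nor whether paired libraries are separate cultures. The deposited tables carry 1 pooled value per group, which leaves the spread between libraries and the read depth unknown. Each share given here is such a group value. Error is expressed by the authors as the posterior probability that a junction changed by 20 percentage points ("points") or more. An LSV was called where that probability reached 0.95 in any junction. A single junction is said to rise or fall only where its own probability did. Counts of the junction that rose or fell most go by the expected change alone. All 5 of the T cell genes CD3E, CD3G, CD247, LCK and ZAP70 had LSVs in both tables, which hold no expression levels.

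In the usual cassette choice, the spliceosome either keeps or skips 1 exon. With 3 junctions the choice is wider: the nearest junction joins the first available exon, the middle junction passes over it, and the farthest junction passes over both inner exons. Such events include exons skipped together, exons used in place of each other (mutually exclusive exons), and alternative first or last exons. CELF2 is an RNA-binding protein that prefers UGU-containing, GU-rich RNA and either represses or enhances nearby exons, depending on where it binds. In T cells its level is known to rise on activation.

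Inner exons of 9 genes that the results turn on are shown here, because their length and letters decide what each junction adds to the protein. All are wholly coding in GENCODE release 29, from whose transcripts the letters were read (a GRCh38 annotation), 5′ to 3′ on the gene's strand. Positions are those of the authors' deposited tables, on hg19. Capitals mark the tetramers TGTT and TGTG, which on RNA are UGUU and UGUG, searched on the gene's strand alone. Of 6556 inner exons of members with a sequence, 67.9% held at least 1, so a match is common and describes only these letters. That share varied with exon length. Among exons of like length it was 20% for the 24-nucleotide exon of CLASP1, 40.4% for the 63-nucleotide exon of EPB41 and 80.3% for the 177-nucleotide exon of ABI1.
EPB41, nearest, chr1:29385101-29385157, plus strand: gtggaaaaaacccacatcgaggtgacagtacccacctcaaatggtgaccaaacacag
EPB41, middle, chr1:29386934-29386996, plus strand: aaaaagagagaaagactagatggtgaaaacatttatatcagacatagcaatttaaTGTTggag
ABI1, nearest, chr10:27044584-27044670, minus strand: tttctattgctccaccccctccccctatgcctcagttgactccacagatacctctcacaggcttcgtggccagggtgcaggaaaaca
ABI1, middle, chr10:27047991-27048167, minus strand: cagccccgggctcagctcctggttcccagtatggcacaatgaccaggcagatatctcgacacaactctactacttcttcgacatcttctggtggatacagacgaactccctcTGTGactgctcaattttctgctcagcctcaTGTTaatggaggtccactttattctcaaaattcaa
TRAF3, nearest, chr14:103355897-103355971, plus strand: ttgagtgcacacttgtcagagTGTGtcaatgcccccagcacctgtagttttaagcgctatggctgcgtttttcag
MICAL3, nearest, chr22:18309220-18309282, minus strand: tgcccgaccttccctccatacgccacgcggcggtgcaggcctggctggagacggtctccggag
MICAL3, middle, chr22:18310410-18310547, minus strand: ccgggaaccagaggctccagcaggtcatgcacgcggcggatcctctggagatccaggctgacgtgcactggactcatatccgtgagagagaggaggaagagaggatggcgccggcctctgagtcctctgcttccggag
CLASP1, nearest, chr2:122203025-122203072, minus strand: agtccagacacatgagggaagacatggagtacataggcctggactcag
CLASP1, middle, chr2:122202515-122202538, minus strand: atggtactaccactaaagcggagg
BIN1, nearest, chr2:127809831-127809938, minus strand: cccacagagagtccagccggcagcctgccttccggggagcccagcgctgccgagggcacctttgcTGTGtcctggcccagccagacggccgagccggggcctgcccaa
BIN1, middle, chr2:127815049-127815177, minus strand: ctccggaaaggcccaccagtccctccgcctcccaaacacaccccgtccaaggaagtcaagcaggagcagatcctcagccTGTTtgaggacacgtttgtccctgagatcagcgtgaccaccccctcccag
KDM6A, nearest, chrX:44919267-44919401, plus strand: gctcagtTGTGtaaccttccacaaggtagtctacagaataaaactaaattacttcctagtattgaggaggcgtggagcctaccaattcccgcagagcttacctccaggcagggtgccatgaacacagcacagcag
KDM6A, middle, chrX:44919854-44920009, plus strand: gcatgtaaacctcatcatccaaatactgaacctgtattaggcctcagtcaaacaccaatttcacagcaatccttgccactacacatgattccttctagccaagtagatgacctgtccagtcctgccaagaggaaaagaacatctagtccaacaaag
AKAP13, nearest, chr15:86201768-86201821, plus strand: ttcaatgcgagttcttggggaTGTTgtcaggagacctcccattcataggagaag
AKAP13, middle, chr15:86205619-86205684, plus strand: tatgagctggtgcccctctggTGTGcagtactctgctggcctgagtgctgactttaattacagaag
P4HA1, nearest, chr10:74803645-74803715, minus strand: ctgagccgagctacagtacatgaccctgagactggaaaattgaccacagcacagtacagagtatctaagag
P4HA1, middle, chr10:74804739-74804809, minus strand: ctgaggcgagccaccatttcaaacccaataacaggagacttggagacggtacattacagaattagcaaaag
The exons of EPB41 are 57 and 63 nucleotides long, nearest first, those of ABI1 87 and 177, of MICAL3 63 and 138, and of CLASP1 48 and 24, and the nearest of TRAF3 is 75. Each of these lengths divides by 3, so that leaving out any of these exons keeps the reading frame. The exons of P4HA1, a prolyl hydroxylase of collagen, are both 71 nucleotides long and share 43 of those 71 bases (60.6%) position by position. Neither keeps the frame alone, so that using 1 in place of the other keeps the reading frame while using both or neither does not.

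Most members had 1 dominant junction. The largest of the 3 shares was 90% or more in 71.6% of members in PMA-treated depleted cells, 73.1% in PMA-treated control cells, 74.2% in unstimulated depleted cells and 73.9% in unstimulated control cells. The middle junction led most often: it held the largest share in 40.0% of members in PMA-treated depleted cells and in 40.1% in PMA-treated control cells. An even split over all 3 junctions was rare. With PMA, 22 members in depleted cells and 28 in control cells had all shares at 20% or more, and without PMA 27 in depleted cells and 18 in control cells did.

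Which junction led differed with the way in which the far exons are themselves joined. In 1703 members with PMA the exons form a row, in which junctions listed in either table join the nearest to the middle and the middle to the farthest exon but not the nearest to the farthest. There the middle junction had a median share of 86.6% in PMA-treated control cells, so the nearest exon was mostly passed over. In 736 fully joined members, with all those links, the nearest junction had a median of 93.6%. In 543 members both inner exons are joined to the farthest exon but not to each other, as in exons used in place of each other, and the farthest junction had a median of 95.2%. A further 2014 members were partly joined, 849 had no listed junction among their far exons, and 6 could not be assigned. Medians in unstimulated control cells for the same classes were 87.5%, 92.6% and 95%.

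**Figure D1:**
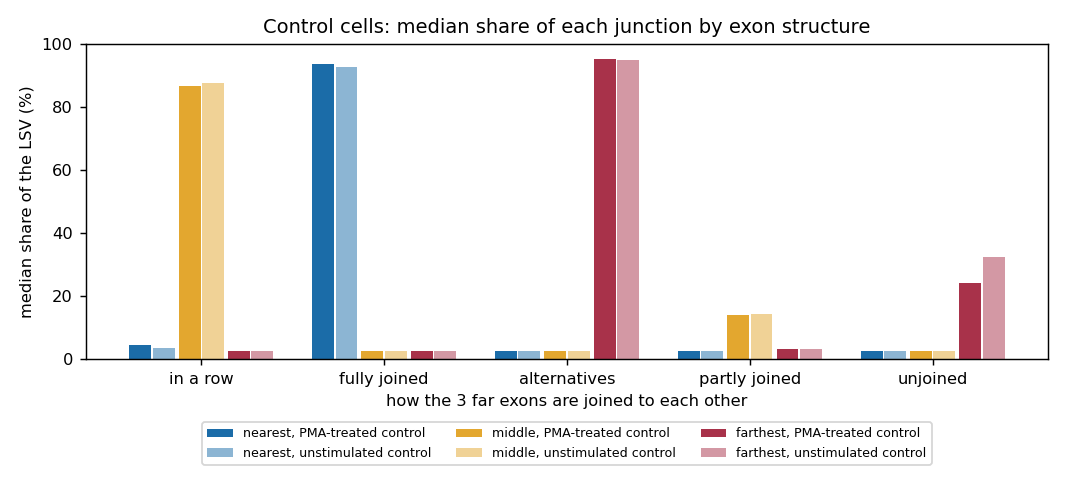
Median share (%) of the nearest, middle and farthest junction in control cells, PMA-treated (dark) left of unstimulated (pale), by how the 3 far exons are joined to each other. The middle junction leads where the exons form a row (86.6% with PMA), the nearest where they are fully joined (93.6%) and the farthest where the inner exons are alternatives (95.2%).

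The label of exon skipping may not hold for every member. Of 3588 members whose exons matched GENCODE, 2195 (61.2%) had 2 inner exons that occur inside transcripts. In 1071 (29.8%) 1 inner exon, and in 322 (8.97%) both, occurred only as the first exon of transcripts (target LSVs) or only as the last (source LSVs). Such a member may include a choice of transcript start or end beside skipping. GENCODE alone sets these kinds, and listed junctions can still splice such an exon on both sides, as in MAP2K7. Among the 116 matched members called in either state these kinds numbered 74 (63.8%), 34 (29.3%) and 8 (6.90%).

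On CELF2 depletion in PMA-treated cells 125 members in 119 genes were called. That is 2.14% of the members, beside 1.87% of all LSVs in the authors' deposited table and 1.85% of the LSVs that are no members. Among exon-skipping LSVs it was 1.08% with 2 junctions, 2.80% with 4 and 3.99% with 5 or more. In unstimulated cells 77 members in 75 genes were called, or 1.31%, beside 0.985% of all LSVs and 0.963% of the LSVs that are no members. There the shares were 0.566% with 2 junctions, 1.99% with 4 and 3% with 5 or more. Taken by the plain difference between the group shares, 290 members with PMA (4.96%) and 232 without (3.95%) differed by 20 points or more in a junction, called or not. That difference was not counted over all LSVs. The share of members called stood between those of shorter and longer LSVs in both states, and these shares were not tested against each other. More junctions also give more chances to pass the threshold. The largest expected change of a called member had a median of 35.1 points with PMA and 34.5 points without, beside 34.0 and 34.3 points over all called LSVs in the authors' deposited tables.

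De novo junctions, those not in the annotation the authors used, occurred in 56.6% of members in both tables. With PMA, 55 of 3310 members with one were called (1.66%) and 70 of 2541 without one (2.75%), beside 1.92% and 1.76% over all LSVs of these kinds. Without PMA the counts were 41 of 3325 (1.23%) and 36 of 2550 (1.41%), beside 1% and 0.949%.

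In 22 members the call was made in both states. They were 17.6% of the members called with PMA and 28.6% of those called without it. The same overlap was not computed over all LSVs, so it cannot be said whether these shares are particular to the members. In all 22 the leading junction moved the same way, by 10 points or more, in the other table. Among 89 members called with PMA and only listed without it, 75 had the same sign in unstimulated cells and 30 reached 10 points the same way, with a median of 3.1 points. Of the 38 members called without PMA and only listed with it, 33 had the same sign and 17 reached 10 points, with a median of 6.9 points. Whether the change differed between the states was not tested.

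**Figure D2:**
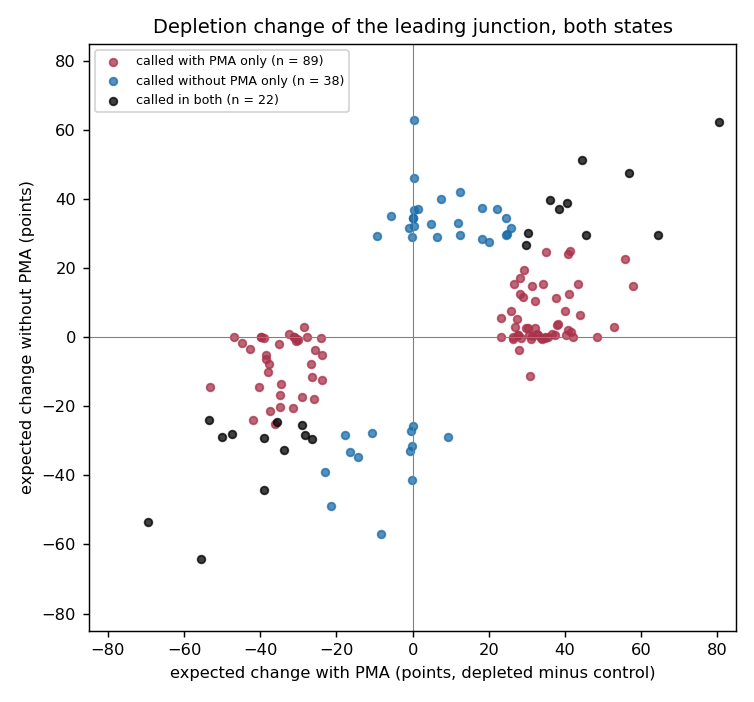
Expected change (points, depleted minus control) of the junction with the largest change in each called member listed in both tables, with PMA (x axis) against without PMA (y axis); the member's own PMA table picks the junction where it was called there. All 22 members called in both states (black) lie in the quadrants of like sign, and many of the 89 called with PMA only lie near 0 on the y axis.

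EPB41 encodes protein 4.1, which ties spectrin and actin to the membrane. Its source LSV leaves the exon that ends at position 29379824 and chooses between the 57-nucleotide exon, the 63-nucleotide exon and the exon beyond them. The 63-nucleotide exon is known to encode part of the spectrin-actin-binding domain. The farthest junction, which omits both, had 43.3% in PMA-treated depleted cells, 97.5% in PMA-treated control cells, 21.7% in unstimulated depleted cells and 84.4% in unstimulated control cells. The nearest junction had 25.6%, 2.5%, 32.9% and 7.7% in the same order, and the middle junction 31.0%, 2.5%, 45.4% and 7.8%. In both states all 3 junctions of EPB41 changed, the farthest falling and both inner ones rising. The expected changes of the farthest junction in the authors' deposited tables were -55.56 points with PMA and -64.25 points without.

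ABI1, a subunit of the WAVE complex that drives actin branching, has a target LSV into the exon at 27040712. The nearest junction, from the 87-nucleotide exon, had 46.9% in PMA-treated depleted cells, 2.5% in PMA-treated control cells, 37.9% in unstimulated depleted cells and 8.9% in unstimulated control cells. The farthest, which omits both inner exons, had 13.4%, 46.1%, 19.6% and 45.2% in those groups, and the middle 39.5%, 51.5%, 42.4% and 45.5%. Depletion raised the nearest and lowered the farthest junction in both states, while the middle junction was called in neither. The 87-nucleotide exon was thus mainly left out in control cells and used in part in depleted ones. Among the 11 called members with PMA in which all 3 junctions changed by 10 points or more were ABI1, EPB41, KDM6A, LRP8 and MICAL2. Without PMA 7 did so, EPB41 and LIMK2 among them.

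In PPP1R12A and LIMK2, also genes of the cytoskeleton, the change involved an exon that GENCODE gives only as a first exon. PPP1R12A, the targeting subunit of myosin phosphatase, had a nearest share of 75.4% in PMA-treated depleted cells, 12.6% in PMA-treated control cells, 85.3% in unstimulated depleted cells and 56.4% in unstimulated control cells. Its middle share was 21.4%, 81.1%, 13.0% and 38.3% in those groups. The nearest exon of that target LSV, 225 nucleotides long, occurs in GENCODE only as a first exon. Listed junctions also join both other far exons to it. A shift of transcript start and a change of splicing thus cannot be told apart for its rise in both states. In LIMK2, a kinase that inactivates cofilin, the nearest exon of 412 nucleotides is likewise only a first exon in GENCODE. There a listed junction also joins the middle exon to the nearest one. The nearest junction had 50.7% in unstimulated depleted cells against 5.7% in unstimulated control cells, and rose. With PMA it had 34.3% in depleted cells against 29.1% in control cells, and was not called.

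MICAL3, an actin-regulating monooxygenase, had the largest expected change of the unstimulated members in the authors' deposited table, 73.21 points at the nearest junction. That junction, from the 63-nucleotide exon, had 73.9% in unstimulated depleted cells against 2.6% in unstimulated control cells. The farthest junction had 25.6% against 86.0%. The inner exons are joined to the far exon but not to each other, and the middle one was little used, with 2.5% in depleted and 13.3% in control cells. This LSV was not listed as a member with PMA. Its relative MICAL2 had a farthest share of 97.5% in PMA-treated depleted cells, 43.2% in PMA-treated control cells, 97.5% in unstimulated depleted cells and 75.4% in unstimulated control cells, called with PMA.

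Of the 47 genes of the cytoskeleton and adhesion list with a member in PMA-treated cells, 9 were called (19.1%), beside 3.13% of all genes with a member. Besides ABI1, EPB41, MICAL3 at another LSV and PPP1R12A they were CLASP1, CTTN, MACF1, MYO18A and SPTAN1. Without PMA 7 of 48 were called (14.6%), beside 1.96%. They were ABI1, EPB41, LIMK2, MICAL3, PPP1R12A, SPTBN1 and UTRN. The median largest expected change over all the list's members was 0.000469 points with PMA and 0.00104 points without, beside 0.0432 and 0.0257 points over all members, so the median member of the list had almost no expected change. This list and those that follow were chosen with earlier results of these data known, and some genes stand in several lists. Their shares of called genes are therefore descriptions and no test.

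**Figure D3:**
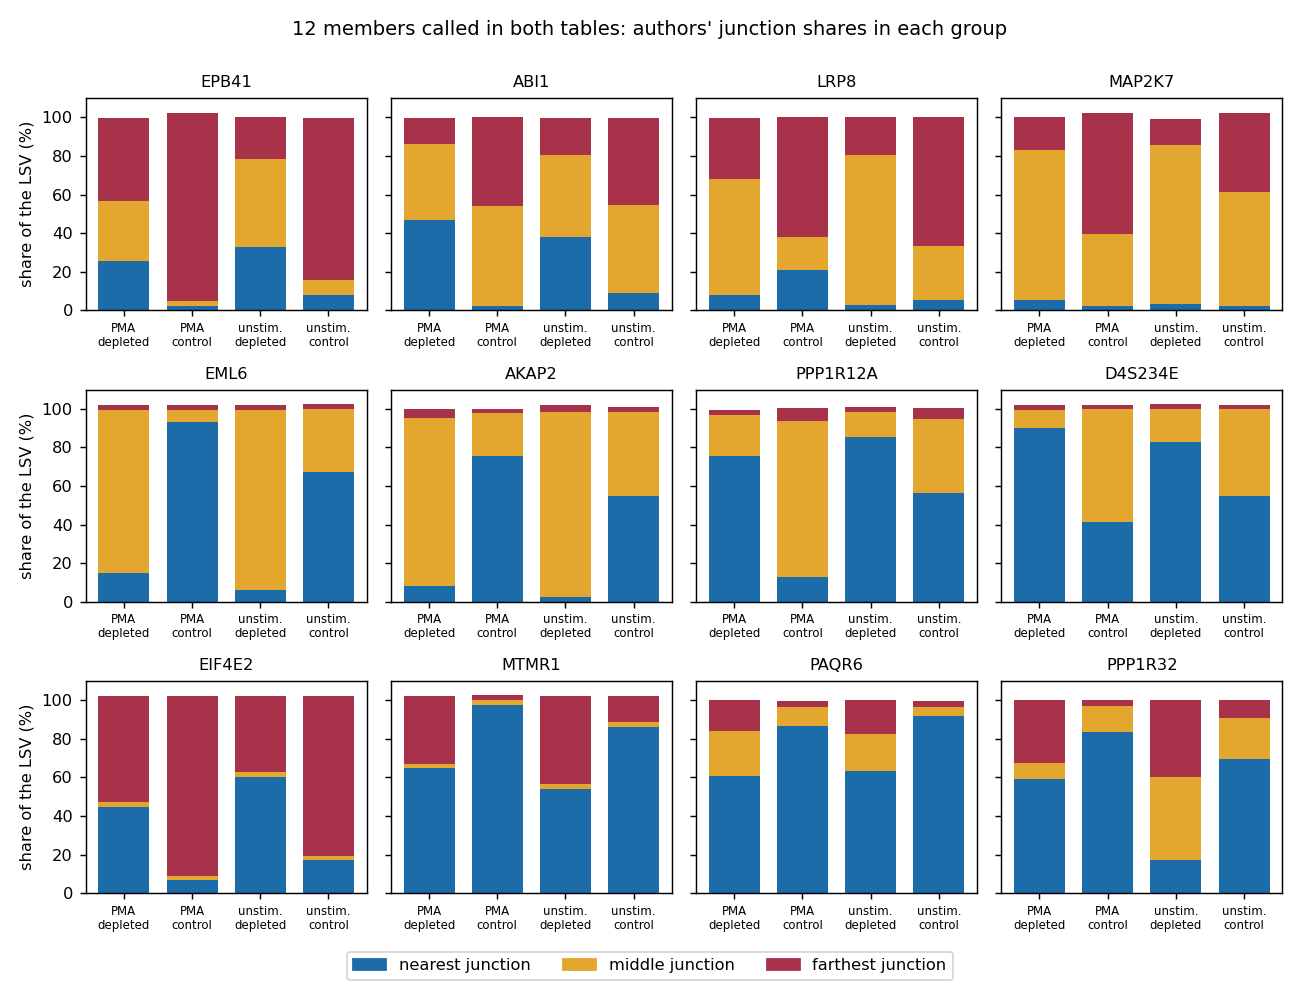
Shares (%) of the nearest, middle and farthest junction in PMA-treated depleted, PMA-treated control, unstimulated depleted and unstimulated control cells, for 12 of the 22 members called in both states, stacked; a share has a floor of 2.5%, so a stack can pass 100%. In EPB41 the farthest share is 43.3% and 97.5% with PMA and 21.7% and 84.4% without, and in EML6 the middle share exceeds the nearest in both depleted groups only.

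EML6 and AKAP2 exchanged 2 junctions in both states, with the remaining one close to its floor of 2.5%. The nearest junction of EML6, a microtubule-binding protein of the EMAP family, had 14.8% in PMA-treated depleted cells, 93.3% in PMA-treated control cells, 6.2% in unstimulated depleted cells and 67.2% in unstimulated control cells. It fell in both states and the middle junction rose. The expected change of 80.49 points at that middle junction was the largest of any member in the authors' deposited table with PMA. AKAP2, an anchoring protein of protein kinase A, fell at the nearest junction, which had 7.9%, 75.8%, 2.6% and 54.7% in those groups, and rose at the middle one, with 87.6%, 21.8%, 95.9% and 43.7%. Both of its inner exons occur only as first exons in GENCODE, and no listed junction joins its far exons to each other. Whether the exchange was between transcript starts was not tested.

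MTMR1 is a phosphoinositide phosphatase of the myotubularin family, whose small exons are known to be misspliced in myotonic dystrophy. Its source LSV chooses between a 24-nucleotide exon, a 54-nucleotide exon and the next exon on chromosome X. The nearest junction had 64.6% in PMA-treated depleted cells, 97.5% in PMA-treated control cells, 54.1% in unstimulated depleted cells and 86.0% in unstimulated control cells. The farthest had 35.2%, 2.5%, 45.7% and 13.7%, and the middle 2.5% in each group. Skipping of both small exons thus rose at the cost of the 24-nucleotide exon in both states.

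LRP8, a receptor for reelin and apolipoprotein E, exchanged its farthest for its middle junction. The middle junction, to a 39-nucleotide exon, had 60.0% in PMA-treated depleted cells, 16.7% in PMA-treated control cells, 77.6% in unstimulated depleted cells and 27.6% in unstimulated control cells. The farthest junction had 31.7%, 62.2%, 19.8% and 67.0%. EIF4E2, a cap-binding protein related to the translation factor eIF4E, rose at the nearest junction, which had 44.5%, 6.6%, 60.1% and 16.9% in those groups. The 79-nucleotide exon that this junction adds is coding and its length does not divide by 3.

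MAP2K7, the kinase that activates JNK, was the only called gene of 42 with a member in the MAPK and small GTPase list with PMA (2.38%), below the 3.13% of all genes with a member. Its farthest junction had 16.7% in PMA-treated depleted cells, 62.8% in PMA-treated control cells, 13.6% in unstimulated depleted cells and 41.0% in unstimulated control cells, and fell in both states. Its middle junction had 78.2%, 37.0%, 82.6% and 58.9%. Without PMA 2 of 42 genes were called (4.76%), beside 1.96% of all genes, MAP2K7 and ARHGEF1, an exchange factor for RhoA. In ARHGEF1 the middle junction had 28.9% in unstimulated depleted cells and 2.5% in unstimulated control cells, against 17.7% and 14.3% in PMA-treated depleted and control cells.

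Genes of T cell receptor signalling and its neighbours gave 3 called of 25 with a member with PMA (12%) and 2 of 28 without it (7.14%), beside 3.13% and 1.96% of all genes with a member. TRAF3, an adaptor that restrains noncanonical NF-κB signalling, has a target LSV into the exon at 103357662. The nearest junction, from the 75-nucleotide exon, had 97.4% in PMA-treated depleted cells, 61.6% in PMA-treated control cells, 97.5% in unstimulated depleted cells and 92.4% in unstimulated control cells. The middle junction, which omits that exon, had 2.5%, 35.4%, 2.5% and 6.5%. So the 75-nucleotide exon was partly left out in PMA-treated control cells and nearly always kept in the other groups. It rose on depletion with PMA, and without PMA the posterior probability was 4.3e-08 in the authors' deposited table.

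Calcineurin, the calcium-dependent phosphatase that activates NFAT, was represented by PPP3CB and PPP3CC, genes of its catalytic subunit. In PPP3CB the nearest exon has 30 nucleotides and is coding. Its junction had 58.5% in PMA-treated depleted cells, 96.5% in PMA-treated control cells, 93.6% in unstimulated depleted cells and 97.3% in unstimulated control cells, and fell with PMA. The middle junction had 38.2%, 3.1%, 6.3% and 2.5%. In PPP3CC the source LSV also has a 30-nucleotide nearest exon, with 59.3%, 86.9%, 53.6% and 81.1% in those groups, and it fell in both states. There the farthest junction took up the difference, with 39.3%, 12.6%, 44.8% and 18.8%. NFAT5, a transcription factor of the osmotic stress response, had a middle share of 74.0% in unstimulated depleted cells against 25.3% in unstimulated control cells and a farthest share of 22.3% against 73.9%. It was not listed as a member with PMA.

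Of genes known for multi-exon or mutually exclusive events, 6 of 34 with a member were called with PMA (17.6%), beside 3.13% of all genes with a member, namely BIN1, DNM2, EPB41, MBNL1, MYO18A and TRAF3. Only EPB41 was called of 34 without PMA (2.94%), near the 1.96% of all genes. The list goes by gene, so a called LSV need not be the known event of its gene. BIN1, which bends membranes at endocytic sites, has a target LSV into the exon at 127808819. Its middle junction, from the 129-nucleotide exon, had 45.7% in PMA-treated depleted cells against 13.8% in PMA-treated control cells. The farthest junction had 53.5% against 85.9%, and the nearest 2.5% in both. The 129-nucleotide exon was thus used more often after depletion and the 108-nucleotide exon in hardly any transcript that enters this exon. In DNM2, the dynamin that cuts off endocytic vesicles, the nearest junction had 10.4% in PMA-treated depleted cells, 49.9% in PMA-treated control cells, 15.5% in unstimulated depleted cells and 26.4% in unstimulated control cells, and fell with PMA. MBNL1, a splicing regulator, had 44.6% in PMA-treated depleted cells and 92.6% in PMA-treated control cells at the nearest junction, to a listed exon of 556 nucleotides.

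MYO18A, an unconventional myosin of the Golgi, has a 45-nucleotide coding exon at the nearest junction. It had 25.0% in PMA-treated depleted cells, 2.5% in PMA-treated control cells, 5.0% in unstimulated depleted cells and 2.5% in unstimulated control cells, and rose with PMA. The paired exons of P4HA1 were not called: the nearest had 67.2%, 87.6%, 67.9% and 77.6% in those groups and the middle 31.6%, 12.2%, 31.9% and 22.3%. The highest posterior probability in the authors' deposited table was 0.807 with PMA and 0.04 without. Also not called were MBNL2, with a middle share of 44.3%, 19.5%, 25.9% and 35.0% in those groups, CTNND1, and MAPT, whose middle share was 78.6%, 88.9%, 80.2% and 97.1%.

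Among regulators of the cell cycle and centrosome, 4 of 50 genes were called with PMA (8%), beside 3.13% of all genes with a member. Without PMA it was 1 of 51 (1.96%), the same share as over all genes. CLASP1 stabilises microtubule plus ends. Its 48-nucleotide exon, at the nearest junction of the source LSV, had 68.7% in PMA-treated depleted cells, 32.2% in PMA-treated control cells, 62.9% in unstimulated depleted cells and 41.6% in unstimulated control cells. The farthest junction had 31.2%, 67.6%, 37.0% and 58.3%, and the 24-nucleotide exon 2.5% in each group. CLASP1 was called from both ends of the skipping junction with PMA, since in the target LSV the junction from the 48-nucleotide exon had 68.4% against 35.0%. In AURKA, a mitotic kinase, the farthest junction had 40.6%, 11.3%, 50.9% and 38.6% in the 4 groups and rose with PMA. In CDK2 the farthest junction, which omits both inner exons, had 25.5%, 2.5%, 18.3% and 6.0% and rose with PMA. Its nearest exon has 144 nucleotides. The middle exon is listed with 409 nucleotides, but the middle junction leaves it at an inner position, so the exon used there is shorter. USP8, a deubiquitinase of endosomes, was the gene called without PMA: its nearest junction had 7.6% in unstimulated depleted cells and 46.5% in unstimulated control cells, against 26.0% and 42.9% in PMA-treated depleted and control cells.

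RNA-binding proteins gave 3 called of 41 genes with PMA (7.32%) and 0 of 41 without, beside 3.13% and 1.96% of all genes with a member. Besides MBNL1 they were ESRP1 and RBM39. In RBM39, a splicing factor related to U2AF, the nearest exon of 499 nucleotides occurs only as a last exon in GENCODE. Listed junctions also join it to both other far exons. The nearest junction had 29.9% in PMA-treated depleted cells, 57.1% in PMA-treated control cells, 39.4% in unstimulated depleted cells and 33.3% in unstimulated control cells. It fell with PMA, and a shift of transcript end and a change of splicing cannot be told apart. Of chromatin and transcription regulators 1 of 59 genes was called with PMA (1.69%), KDM6A, and 1 of 61 without (1.64%), DNMT3B, both below the 3.13% and 1.96% of all genes. KDM6A, a demethylase of histone H3 lysine 27, had 29%, 72.7%, 57.8% and 69.1% at the nearest junction, which fell with PMA. Its middle junction had 39.4%, 14.9%, 37.0% and 29.3% and its farthest 31.6%, 12.3%, 5.1% and 2.6%, so all 3 were in use in PMA-treated depleted cells. KDM6A has a close relative on the Y chromosome, and reads shared with it cannot be resolved. Of vesicle trafficking genes, 3 of 50 were called with PMA (6%), BIN1, DNM2 and KIF21A, and 0 of 51 without, beside 3.13% and 1.96% of all genes.

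Other large changes were called in 1 state. With PMA, ITGAE, the integrin αE chain, had a nearest share of 19.6% in depleted cells against 75.5% in control cells, and of 5.6% against 20.0% without PMA. Its middle share was 79.7% against 23.4% with PMA. FNIP1, a folliculin partner, had a farthest share of 31.0% in PMA-treated depleted cells, 83.0% in PMA-treated control cells, 38.2% in unstimulated depleted cells and 60.1% in unstimulated control cells, with a nearest exon whose far end was not read. SMG1P3 is a pseudogene copy of SMG1, so its call with PMA rests on reads that the authors' counting could split between copies. Without PMA, PKP4, an armadillo protein of cell junctions, had a farthest share of 32.7% in depleted cells against 91.6% in control cells. Its nearest share was 63.8% against 2.5%. With PMA the farthest share was 87.1% against 97.5%. This LSV holds a de novo junction, and the far end of its nearest exon was not read.

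No single exchange of junctions dominated the called members. The counts here go by the expected change of each junction, whatever its own posterior probability. PAQR6, for example, counts as a rise of the farthest junction with PMA, where that junction had a probability of 0.0425. The pair with the largest rise and the largest fall was the nearest and middle in 44, the nearest and farthest in 47 and the middle and farthest in 34 of the 125 with PMA. Without PMA the counts were 30, 27 and 20 of 77. Over all members, called or not, these pairs made up 39.4%, 27.9% and 31.9% with PMA and 39.5%, 26.7% and 32.8% without. The farthest junction, which omits both inner exons, rose most in 45 members with PMA and in 20 without. Those are 0.769% and 0.340% of members, beside 0.655% and 0.288% of all exon-skipping LSVs whose longest junction rose most. It fell most in 36 and 27.

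**Figure D4:**
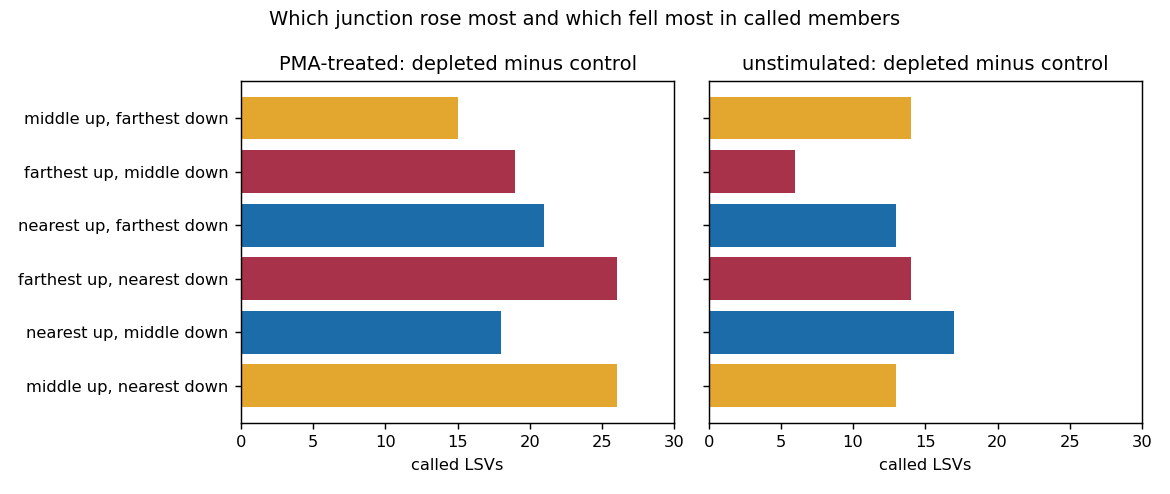
Number of called members by the junction that rose most (colour: blue nearest, yellow middle, red farthest) and the junction that fell most, PMA-treated (left) and unstimulated (right), depleted minus control. Rises and falls go by the expected change, whatever the junction's own probability. With PMA the farthest rose most in 45 and fell most in 36 of 125 members, and without PMA in 20 and 27 of 77.

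The opposed pairs were also counted by the way the exons are joined, with no test. The junction that leads in a class bears on which pair can oppose. Pairs were not counted over all members of a class, so these counts do not show an effect of depletion particular to it. In 21 of the 31 called members of a row with PMA, and in 11 of 13 without, the opposed junctions were the nearest and middle, that is, inclusion of the nearest exon alone. Where the inner exons were alternatives, the farthest junction was 1 of the opposed pair in all 21 members called with PMA and in 7 of 8 called without it. In fully joined members the nearest junction opposed the farthest in 11 of 22 with PMA and in 5 of 15 without. The share of members called was 1.82% in a row, 2.99% when fully joined, 3.87% for alternatives, 1.64% when partly joined and 2.12% for unjoined ones with PMA. Without PMA it was 0.761%, 2.02%, 1.51%, 1.47% and 1.29% in that order. The junction with the largest share changed in 51 of the members called with PMA and in 33 of those called without it.

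Where a skipping event was measured from both of its ends, the farthest junction was the same in a source and a target member. That held for 401 junctions with PMA and 405 without. Their farthest shares differed by a median of 0.1 points in PMA-treated depleted cells and 0.0 points in the other groups. The 95th percentile was 8.3 to 9.8 points over the 4 groups. Over all members the median farthest share was 2.7% to 3.1% in those groups, close to the floor of a share. Pairs with both shares near that floor can differ by little, so these medians cannot show how well the ends match. BORA, CLASP1, PPP1R32 and PPP3CC were called from both ends with PMA, and 9 pairs from 1 end. Without PMA 0 were called from both ends and 11 from 1 end.

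Among members whose inner exons were both wholly coding, exons of frame-keeping length were a larger part of the called ones. Of 36 such called members, 17 (47.2%) had 2 inner exons with a length divisible by 3, against 276 of all 1047 (26.4%). In a further 8 (22.2%), against 200 (19.1%), neither exon kept the frame but the sum of both did. These counts are of LSVs, so a pair of exons called from both ends, as in CLASP1, counts from each end. Inner exons of 30 nucleotides or fewer were uncommon: 4 nearest exons (3.45%) and 3 middle ones (2.59%) among 116 called members, against 2.29% and 1.37% of all matched members. These shares were not tested.

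The difference between shares with and without PMA was taken within each kind of cell. It reached 20 points in any junction in 109 members of depleted cells (1.96%), beside 1.87% of all LSVs listed in both tables, and in 178 members of control cells (3.21%), beside 2.59%. The tables were quantified separately, so no test stands behind these differences. In 21 members the same junction differed by 20 points or more in the same direction in depleted and control cells, and 13 of those had no de novo junction.

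AKAP13, an anchoring protein that activates RhoA, had a farthest share of 40.6% in PMA-treated and 15% in unstimulated depleted cells, and of 56.8% in PMA-treated and 21.8% in unstimulated control cells. The nearest junction, to the 54-nucleotide exon, had 59.0% and 79.5% in depleted and 42.9% and 77.6% in control cells. Joint skipping of its 54- and 66-nucleotide exons thus had a higher share with PMA in both kinds of cell, and CELF2 depletion was called in neither state. GOLGA4, a golgin, had nearly the same values in both kinds of cell, with a middle share of 70.0% with PMA and 47.2% without in depleted cells and of 69.9% and 47.0% in control cells.

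TNFRSF14, a receptor of the TNF family on lymphocytes, had a middle share of 48.6% with PMA and 73.5% without in depleted cells, and of 58.9% and 95.3% in control cells. The listed nearest and middle exons of TNFRSF14 abut without a gap, and not every exon end of this LSV was read. BPTF, the largest subunit of the NURF remodeller, has 2 inner exons of 189 nucleotides each. Its middle junction had 8.7% with PMA and 30.1% without in depleted cells, and 3.0% and 28.6% in control cells. RFC5, a subunit of the DNA clamp loader, had a nearest share of 23.8% with PMA and 2.5% without in depleted cells, and of 30.5% and 8.9% in control cells. FKBP14, ADAP1 and C14orf159 met the same criterion, and of them FKBP14 was also called on depletion with PMA, with a middle share of 88.0% in depleted and 48.9% in control cells.

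**Figure D5:**
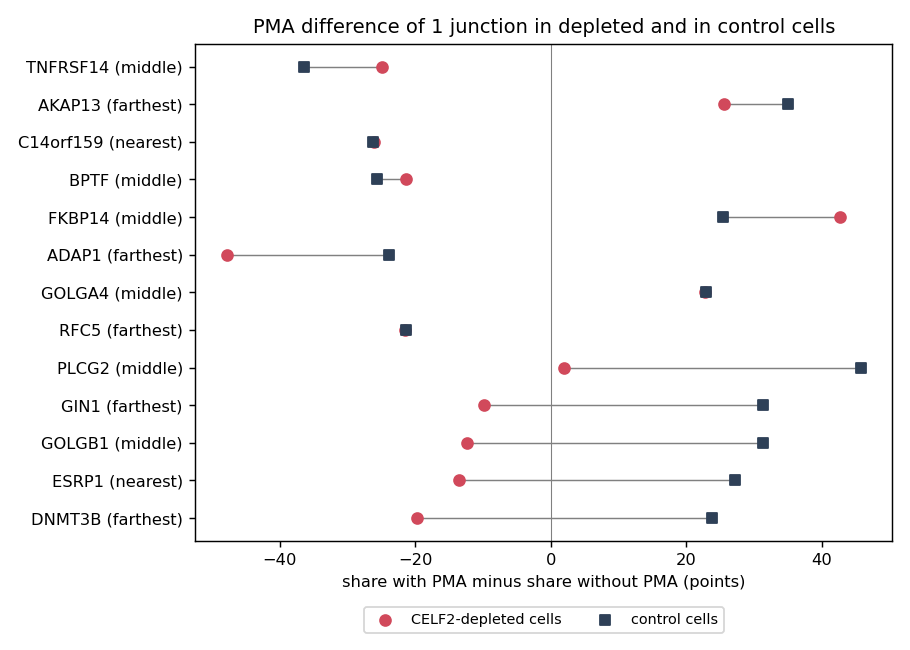
Share with PMA minus share without PMA (points) of 1 junction, named beside the gene, in CELF2-depleted cells (circles) and control cells (squares). In the upper 8 genes both kinds of cell lie on the same side of 0 by over 20 points, and in the lower 5 they lie far apart, as in PLCG2, whose middle share with PMA was 4.6% in depleted and 50.3% in control cells.

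The PMA differences of depleted and control cells lay farthest apart in PLCG2, GIN1, GOLGB1, ESRP1 and DNMT3B, among members without a de novo junction. PLCG2, a phospholipase of antigen receptor signalling, had a middle share of 4.6% in PMA-treated depleted cells, 50.3% in PMA-treated control cells, 2.6% in unstimulated depleted cells and 4.5% in unstimulated control cells. Its middle exon of 517 nucleotides occurs only as a first exon in GENCODE. The middle junction was thus in use in PMA-treated control cells and close to its floor elsewhere. Whether transcript starts differed was not tested. GIN1, a gene with an integrase-like domain, had a farthest share of 3.6%, 36.1%, 13.4% and 4.7% in those groups. GOLGB1, a Golgi tether, had a middle share of 28.3%, 50.5%, 40.6% and 19.2% and was called in neither state. ESRP1, an epithelial splicing regulator, had a nearest share of 51.9%, 81.4%, 65.4% and 54.2%, and DNMT3B, a DNA methyltransferase, a farthest share of 77.1%, 92.1%, 96.9% and 68.3%.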

How the data were processed

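Strand-specific RNA sequencing of 8 libraries in 4 groups was processed by the authors, whose deposited tables, 1 for each state, compare depleted with control cells. STAR 2.5.1b and the build hg19 appear in the submitters' processing notes, with no role given. Column names match VOILA, which writes the output of MAJIQ. Its version, its annotation and its filters on reads are not stated in the sources used here. Per the file headers the tables hold the expected share of each junction (deposited as a fraction from 0 to 1, printed here as a percent), its expected change, which the authors' model shrinks, and the posterior probability that the change reached 20 points. That probability is no p-value, and no adjustment for the number of LSVs was made. Shares were bounded at 2.5% and 97.5%. Replicates were pooled before deposit, so no fit, interval or test per library was possible, and depth is unknown. Unused columns of per-sample values numbered 0.

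Junctions were ordered by length with Python 3.11.15 and pandas 2.3.3, and links among far exons were taken from all junctions in either table. Source and target follow the direction of transcription. Exons were matched to GENCODE release 29 by gene ID and by the ends of all exons relative to each other, without converting positions. Of 6177 members 3588 (58.1%) matched, and 81.3% of those without a de novo junction. A listed exon of 11 nucleotides had 1 end unread. The steps were tested on simulated LSVs with known answers.

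The members, the 8 gene lists and the rule for named genes were chosen with earlier results of these data known. The rule took, 1 LSV a gene, the 15 called genes with the largest expected change in each table, up to 20 called in both, 5 called in each list and 10 of the list of known multi-exon events. It also took the 10 genes with the largest PMA difference of 1 sign in both kinds of cell and the 5 in which these lay farthest apart. Not all of them are described, and 1 gene and 1 exon sequence are not reported here.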

Additional observations from a re-analysis of the deposited data

Results flagged for a closer look

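In 3 members the shares with PMA and without PMA differed by 20 points or more in opposite directions in depleted and in control cells. In ATXN7L1 the middle junction had 97.0% in PMA-treated and 75.7% in unstimulated depleted cells, against 72.4% and 94.7% in control cells. Its PMA differences of 21.3 points in depleted cells and -22.3 points in control cells lie 43.6 points apart. In PCNXL2 the farthest junction had 17.6% in PMA-treated and 46.0% in unstimulated depleted cells, against 48.2% and 15.1% in control cells, with a gap of -61.5 points. In DNMT3B the nearest junction had 22.6% in PMA-treated and 2.5% in unstimulated depleted cells, against 7.4% and 29.1% in control cells, with a gap of 41.8 points. Both states come from tables quantified separately, with 1 pooled value a group, so none of these differences was tested.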

How the results depend on the processing

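The counts of called members depended on the call rule and on which LSVs were counted. At a posterior probability of 0.99 it was 76 with PMA, 49 without and 14 in both, against 125, 77 and 22. With an expected change of 20 points in place of the probability it was 259 with PMA and 191 without. Leaving out members with a de novo junction gave 70, 36 and 13. Source LSVs alone gave 50 with PMA and 41 without, and target LSVs alone 75 and 36, by fewer LSVs counted. The farthest junction rose most in 26 (PMA) and 13 (unstimulated) at 0.99 and in 25 and 9 without de novo junctions. The nearest and farthest were opposed in 28 and 15 at 0.99 and in 24 and 12 without de novo junctions. PMA differences reached 10 points in 617 members of depleted and 686 of control cells, and 30 points in 26 and 39. Without de novo junctions 20 points were reached in 49 and 84. The median nearest share in unstimulated control cells was 5.2% with every exon end read, against 3.0%; the cause was not tested. A probability of 0.90, counting a shared farthest junction once, and requiring listing in both tables or read exon ends kept the counts of calls within 1.5 times. No paired analysis was possible because the deposited columns pool both libraries of a group and carry no replicate number, and no replicate could be left out for the same reason. Depth is unknown, so what it limits cannot be given.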
